A study of Mus musculus with 16 samples.

Results

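Collagen chains are the proteins that wind around each other to form collagens, and 42 genes named Col, number, a, number were measured on these arrays by 82 probe sets that name a single gene. They were taken by symbol from all 18193 genes so named (34945 single-gene probe sets), and each gene was read from its probe set with the highest mean over the 16 arrays. By type they were 11 fibrillar chains, 9 chains of basement membranes and the zone beneath them, 5 of beaded filaments, 3 short chains, 9 fibril-associated chains with interrupted helices (FACIT), 4 transmembrane chains and 1 other. A log2 value of 4 served as the dim cutoff, and a gene was tested where a probe set had at least 2 arrays above it. That left 29 of the 42 collagen genes and 10802 of all genes. For tests, the probe set of highest mean was chosen among those of the gene that passed.

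The cells were P19CL6, a mouse embryonal carcinoma line that forms beating heart muscle cells in medium with dimethyl sulfoxide (DMSO). The growth group had no DMSO and was passaged every 48 h (3 arrays, replicates A, B and C). The other groups grew in 1% DMSO, renewed every 48 h, and were taken at day 4 (A, B, C), day 6 (B, C), day 8 (A, B, C), day 10 (A, B, C) and day 12 (A, C). No culture was kept as long without DMSO and without passage, so DMSO, time in culture and the lack of passage cannot be told apart. All groups are the same unmodified line, the design text calls the samples independent without saying what was separate, so p-values measure the spread between these samples, and whole cultures were extracted, so that fewer cells of a type and less RNA per cell cannot be told apart.

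Collagen chains are made in the endoplasmic reticulum, where prolines and lysines are hydroxylated before the helix folds, and they are then exported, trimmed and cross-linked outside the cell. Fibrillar chains (types I, II, III, V, XI and others) build the cable-like fibrils of connective tissue, type IV chains build the sheet-like network of basement membranes, and type VI chains build fine filaments around cells. FACIT chains coat fibrils, and transmembrane chains sit in the cell surface. In the developing heart, basement membrane collagen surrounds muscle and endocardial cells, and fibrillar collagen is made mainly by valve, epicardial and fibroblast cells.

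Promoters were read from RefSeq windows on build GRCm38.p6, which were found for 33 of the 42 genes, and 250 bases before the annotated start are printed here. The 5 below belong to the genes whose time courses the results turn on, and they are shown 5′ to 3′ on the gene's strand. Col23a1, which peaked at day 4, lies at chr11:51289670-51289919 on the plus strand. Col4a6 (chrX:141474077-141474326, minus strand) and Col4a5 (chrX:141475169-141475418, plus strand) point away from each other, with 1343 bases between their starts. Col1a2 (chr6:4505368-4505617, plus strand) and Col3a1 (chr1:45311288-45311537, plus strand) were dim until day 8. Capitals mark matches to 3 motifs searched on both strands: TATAAA (read as TTTATA on the other strand), CCAAT (read as ATTGG there) and GGGCGG (read as CCGCCC there). In these windows no match overlapped a match to another of these motifs.
Col23a1: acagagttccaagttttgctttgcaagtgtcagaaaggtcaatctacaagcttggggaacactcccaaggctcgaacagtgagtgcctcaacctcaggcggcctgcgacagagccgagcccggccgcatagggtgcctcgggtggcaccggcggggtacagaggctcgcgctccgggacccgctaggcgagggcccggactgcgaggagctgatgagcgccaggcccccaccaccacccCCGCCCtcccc
Col4a6: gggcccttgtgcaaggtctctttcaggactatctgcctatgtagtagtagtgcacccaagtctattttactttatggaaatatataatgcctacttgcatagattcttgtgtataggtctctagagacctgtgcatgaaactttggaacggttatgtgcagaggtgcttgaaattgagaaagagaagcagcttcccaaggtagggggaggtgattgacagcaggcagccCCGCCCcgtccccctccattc
Col4a5: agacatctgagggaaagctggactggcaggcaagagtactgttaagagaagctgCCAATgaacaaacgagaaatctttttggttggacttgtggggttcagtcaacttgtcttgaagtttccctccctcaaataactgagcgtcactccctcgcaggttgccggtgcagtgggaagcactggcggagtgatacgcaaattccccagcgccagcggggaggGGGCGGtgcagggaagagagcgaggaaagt
Col1a2: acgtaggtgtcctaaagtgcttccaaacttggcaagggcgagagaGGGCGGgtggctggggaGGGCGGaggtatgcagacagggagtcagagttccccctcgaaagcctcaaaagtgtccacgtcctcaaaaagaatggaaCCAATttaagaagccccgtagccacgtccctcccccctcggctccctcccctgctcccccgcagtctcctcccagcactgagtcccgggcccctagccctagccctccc
Col3a1: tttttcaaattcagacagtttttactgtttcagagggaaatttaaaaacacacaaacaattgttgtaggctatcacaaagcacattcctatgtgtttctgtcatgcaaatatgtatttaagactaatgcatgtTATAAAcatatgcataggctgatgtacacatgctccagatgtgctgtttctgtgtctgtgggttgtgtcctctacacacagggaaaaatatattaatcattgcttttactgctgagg

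The Col3a1 window held 35.2% G and C, with its TATAAA match 117 to 112 bases before the start. The windows of Col23a1 and Col1a2 held 66.0% and 62.0%, those of Col4a5 and Col4a6 54.0% and 47.6%. The Col1a2 window had a CCAAT match 109 to 105 bases before the start and GGGCGG matches at 205 to 200 and 188 to 183 bases. Over the 33 genes, TATAAA was found for 5, CCAAT for 13 and GGGCGG for 20, while 12.4%, 33.8% and 32.7% of all 32851 windows of this length held them. These matches are letters in a window and were not tested as binding sites.

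Position was a feature the symbols did not use. Per the RefSeq gene table of GRCm38.p6, 5 pairs of tested collagen genes are direct neighbours. In 4 of them both genes had their earliest call against growth on the same day: Col9a1 and Col19a1 at day 4, Col4a1 and Col4a2 at day 4 (starts 21 bases apart on opposite strands), Col4a5 and Col4a6 at day 6, and Col3a1 and Col5a2 at day 8. The pair Col6a1 and Col6a2 had earliest calls at days 10 and 12. This is a description of 5 pairs, with no test, and the shared day rests in 3 of the 4 on a call that some alternatives lost: Col19a1 at day 4, Col4a6 at day 6 and Col3a1 at day 8. Earliest calls fell on days 4, 6, 8, 10 and 12 for 6, 6, 3, 3 and 4 collagen genes, so pairs can share a day whatever their position. The share of same-day pairs among genes that are not neighbours was not worked out.

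Between 39.6 and 42.5% of the probe sets lay above the cutoff on each array, and array medians ran from 3.16 to 3.27 on the log2 scale. Arrays of a group correlated at r = 0.975 or higher over the 10802 tested genes, except at day 8. There replicate A correlated with the other day 8 arrays at 0.956 and 0.967, and with the day 6 arrays at a mean of 0.991. Day 8 results are therefore given with and without it where it matters. The 5 undifferentiated markers (Pou5f1, Sox2, Nanog, Utf1, Lin28a) all lay above the cutoff on every growth array, and their log2 summed signal was 14.82 to 15.16 there and 9.76 to 10.50 at day 12. The 7 cardiomyocyte markers summed to 5.68 to 6.27 in growth, with 6 of 7 dim, and to 16.52 to 16.54 at day 12, with all 7 above the cutoff.

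The number of collagen genes called above their growth level went from 6 at day 4 to 19 at day 12. A gene was called where limma's Benjamini-Hochberg adjusted p over all 10802 genes was under 0.05 and the difference was at least 1 log2. At day 4, 6 of 29 collagen genes were called higher and 1 lower (27% of all genes called, 13.3% higher and 13.6% lower). At day 6 the counts were 11 and 1 (26.8% of all genes, 14% higher and 12.9% lower), and at day 8 they were 12 and 1 (31%, 16% higher and 15% lower). At day 10 they were 14 and 1 (38%, 18.5% higher and 19.5% lower), and at day 12 they were 19 and 1 (41.9%, 22.5% higher and 19.3% lower). The median difference over the 29 genes went from 0.04 at day 4 to 2.50 at day 12, beside 0.00 for all genes on both days.

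Genes that pass the cutoff only where they are high had to differ, so the counts were also made with no cutoff, over all 42 collagen genes and all 18193 genes. At days 4, 6, 8, 10 and 12 the collagen genes called higher were then 7, 7, 12, 14 and 20 of 42, and 1 was lower on each day. Of all genes, 7.62%, 7.79%, 9.09%, 10.8% and 13.2% were called higher on those days, and 7.99%, 7.32%, 8.88%, 11.5% and 11.4% lower. With the cutoff, a moderated F test over the 5 days, for genes whose highest and lowest group means lay at least 1 log2 apart, called 23 of 29 collagen genes, beside 60.9% of all genes.

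**Figure D1:**
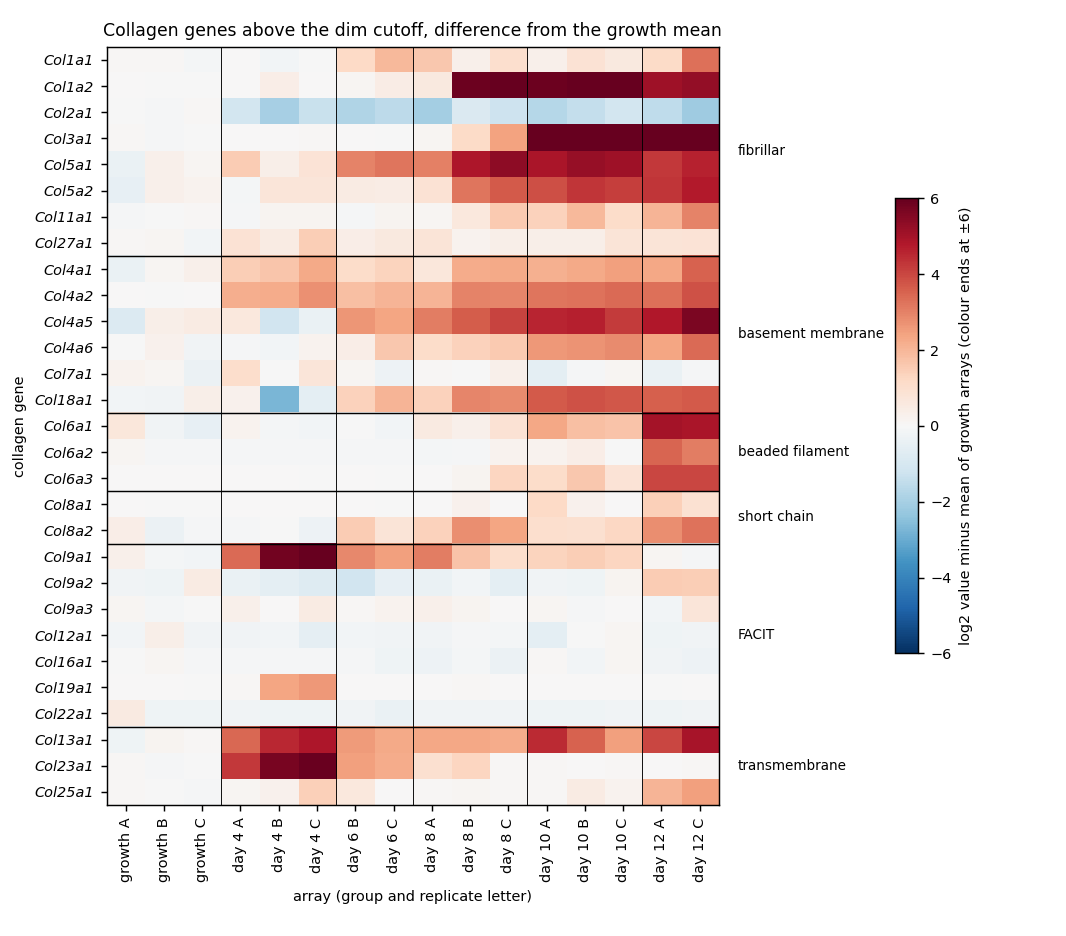
Difference of each of 29 collagen genes (rows, by type) from its own growth mean, in log2, on each of the 16 arrays (columns, by group and replicate letter); colours end at 6 either way. Col23a1 and Col9a1 are reddest at day 4, the type IV rows from day 6 or earlier, Col3a1 and Col1a2 from days 8 to 10 and the type VI rows at day 12, while Col2a1 is blue on every DMSO array.

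The 22 genes ever called higher than growth fell into 5 sets by the day of the earliest call. At day 4 these were Col4a1, Col4a2, Col9a1, Col13a1, Col19a1 and Col23a1. At day 6 Col1a1, Col4a5, Col4a6, Col5a1, Col8a2 and Col18a1 followed, and at day 8 Col1a2, Col3a1 and Col5a2. Day 10 added Col6a1, Col6a3 and Col11a1, and day 12 added Col6a2, Col8a1, Col9a2 and Col25a1. Col2a1 was called lower on all 5 days, and Col7a1, Col9a3, Col12a1, Col16a1, Col22a1 and Col27a1 were called on none. An earliest call depends on when a difference passed the threshold, and several day 6 calls were lost under other settings, as given with each gene.

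Of the fibrillar chains, 8 of 11 were tested, and 0, 2, 4, 5 and 6 of them were called higher at days 4, 6, 8, 10 and 12. Col3a1, the chain of type III collagen in stretchable tissues such as vessel walls, showed the widest span of any collagen gene. It read 2.91, 2.81 and 2.84 in growth (replicates A, B and C), 2.87, 2.87 and 2.94 at day 4 and 2.90 and 2.83 at day 6 (B and C). At day 8 it read 3.00, 4.00 and 5.26, at day 10 9.66, 10.37 and 9.95, and at day 12 12.06 and 12.26 (A and C). The gene was dim through day 6 and bright on every array of days 10 and 12. The mean was 12.16 ± 0.15 (SD, n = 2) at day 12, at least 286-fold over the dim growth group (adjusted p = 1.91e-09). The day 10 mean of 9.99 ± 0.36 (n = 3) was 5.90 ± 0.39 (SE) log2 above day 8 (adjusted p = 6.57e-07). The day 8 call itself (1.23 ± 0.39, adjusted p = 0.0166) was lost without day 8 replicate C (0.64, adjusted p = 0.061), and the other Col3a1 probe set differed from growth by 0.02 at day 8 and 6.62 at day 12.

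Col1a2, which pairs with Col1a1 chains in type I collagen of skin, bone and scar, was up from day 8 on, except in day 8 replicate A. It read 2.37, 2.35 and 2.35 in growth, 2.37, 2.75 and 2.37 at day 4, and 2.49 and 2.82 at day 6. It read 2.94, 8.22 and 8.89 at day 8, 8.26, 9.47 and 8.74 at day 10, and 7.45 and 7.65 at day 12. Replicate A of day 8 still lay with the dim arrays, while B and C lay in the range of day 10. The mean of day 10 was at least 28.4-fold above growth (difference 6.47 ± 1.05, adjusted p = 0.000124) and that of day 12 at least 11.7-fold (adjusted p = 0.00168). The day 8 call (4.32 ± 1.05, adjusted p = 0.00347) was lost when only growth and day 8 were fitted (adjusted p = 0.0533). With all arrays the step from day 6 to day 8 was not called. Without day 8 replicate A the day 8 difference was 6.20, and the step from day 6 to day 8 was called (5.90 ± 0.33, adjusted p = 3.84e-07). That array was left out because it resembled day 6, so this p-value favours a difference and is descriptive. A fall of 1.28 log2 from day 10 to day 12 was also called without it (adjusted p = 0.0288).

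Col1a1 did not follow Col1a2 in size. Its values were 3.16, 3.16 and 3.01 in growth, 3.15, 2.93 and 3.07 at day 4, 4.30 and 5.05 at day 6, 4.72, 3.43 and 4.13 at day 8, 3.40, 3.99 and 3.68 at day 10, and 4.28 and 6.41 at day 12. The growth and day 4 arrays were dim, those of later days spread around the cutoff, and 1 of the day 12 arrays stood well above the other. The difference from growth was 2.23 ± 0.49 at day 12 (adjusted p = 0.00125) and 1.17 without day 12 replicate C (adjusted p = 0.031), but 0.58 ± 0.43 at day 10 (adjusted p = 0.266). The day 6 call (1.57, adjusted p = 0.0185) was lost without day 6 replicate C (1.19, adjusted p = 0.172). The other Col1a1 probe set was not called on any day, with differences from 0.11 to 0.78.

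Type V chains start fibrils and limit their width, and Col5a1 and Col5a2 had their earliest calls at days 6 and 8. Col5a1 read 5.52, 6.22 and 6.05 in growth, 7.46, 6.28 and 6.74 at day 4, and 8.89 and 9.14 at day 6. It read 8.96, 10.78 and 11.30 at day 8, 10.82, 11.17 and 11.00 at day 10, and 10.19 and 10.57 at day 12. All arrays from day 6 on lay above all growth and day 4 arrays. Col5a1 was 8.52-fold above growth at day 6 (difference 3.09 ± 0.52, adjusted p = 0.000329) and 33.6-fold at day 10 (adjusted p = 8.11e-07). At day 4 its main probe set missed the call (0.90 ± 0.47, adjusted p = 0.13), and the other probe sets differed by 1.34 and 2.19 (adjusted p = 0.0381 and 0.000522 over all probe sets). Col5a2 read 7.04, 7.84 and 7.72 in growth, 7.43, 8.27 and 8.24 at day 4, 8.01 and 7.99 at day 6, and 8.39, 10.73 and 11.23 at day 8. It then read 11.40, 11.81 and 11.68 at day 10 and 11.81 and 12.30 at day 12. Its arrays of growth to day 6 overlapped, and from day 8 on all lay above them. The day 12 mean was 23.0-fold above growth (difference 4.52 ± 0.60, adjusted p = 2.23e-05), and day 6 was not called (0.47 ± 0.60, adjusted p = 0.573).

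Cartilage-type fibrillar chains split. Col11a1, a type XI chain found within type II fibrils and in early mesenchyme, read 3.00, 3.02 and 3.14 in growth, 2.98, 3.20 and 3.22 at day 4 and 2.99 and 3.20 at day 6. It read 3.19, 3.66 and 4.62 at day 8, 4.41, 5.01 and 4.13 at day 10, and 5.07 and 6.04 at day 12. It was dim through day 6, and both day 12 arrays lay above all others. It was at least 2.94-fold above growth at day 12 (difference 2.50 ± 0.37, adjusted p = 5.7e-05), and the day 10 call (1.46, adjusted p = 0.0017) was lost when values under 4 were set to 4 (0.52, adjusted p = 0.0999). At day 8 the chosen probe set differed from growth by 0.77 and the other by 1.49 (adjusted p = 0.0741 and 0.0143 over all probe sets). The mean of the gene's probe sets was called at day 8 (1.13, adjusted p = 0.0208), so the earliest day depends on the probe set.

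Col2a1, the main chain of cartilage fibrils, was the sole collagen gene called lower than growth. It read 4.90, 4.83 and 5.0 in growth, 3.82, 2.93 and 3.57 at day 4, and 3.09 and 3.36 at day 6. It read 2.87, 4.03 and 3.69 at day 8, 3.18, 3.46 and 3.83 at day 10, and 3.40 and 2.76 at day 12. Every DMSO array lay below every growth array, and all but 1 of them were dim. The differences ran from -1.83 ± 0.34 (day 12, adjusted p = 0.000338) to -1.38 ± 0.30 (day 8, adjusted p = 0.00162), and against the dim days growth was at least 1.88-fold higher. With values under 4 set to 4 the differences were -0.91 or -0.90, short of the 1 log2 a call needs. Of 7 chondrocyte markers, Acan, Comp and Matn1 were dim in every group, and the log2 summed signal was 5.80 to 6.19 in growth, 6.08 to 6.52 at day 4, 7.21 to 7.57 at day 6, 6.27 to 7.18 at day 8, 6.04 to 6.30 at day 10 and 6.17 to 6.42 at day 12. Hapln1 was called higher at days 6 and 8 (3.52 and 2.45) and Cnmd at day 4 (1.89). Sox9 was not called. Matn3 was called lower at days 4, 8, 10 and 12 (-1.37, -1.35, -1.38 and -1.43) by the probe set that passed the cutoff. The summed signal holds another Matn3 probe set, of higher mean, which did not show this fall. It read 3.44, 3.27 and 3.63 in growth, 3.37, 3.35 and 3.26 at day 4, and 4.56, 3.48 and 3.60 at day 8. The 2 probe sets of Matn3 therefore disagree. The part of these markers in the Col2a1 result was not tested.

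Col27a1, a fibrillar chain of cartilage and early mesenchyme, was not called by its chosen probe set. Its values spanned 3.81 to 5.46, with a difference of 0.96 ± 0.23 at day 4 (adjusted p = 0.00375), just short of 1 log2. Its other probe set differed from growth by 2.37, 2.00, 1.95, 2.73 and 2.15 at days 4 to 12, all with adjusted p under 0.05 over all probe sets. The probe sets of this gene therefore disagree on the call.

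Of 9 basement membrane chains 6 were tested, and 2 were called higher at day 4 and 5 on every later day. Col4a1 and Col4a2, which together form the type IV network of nearly all basement membranes, were bright already in growth. Col4a2 read 6.85, 6.80 and 6.85 in growth, 9.03, 9.07 and 9.57 at day 4, and 8.63 and 8.89 at day 6. It read 8.86, 9.80 and 9.76 at day 8, 10.05, 10.09 and 10.21 at day 10, and 10.15 and 10.64 at day 12. All DMSO arrays lay above all growth arrays. The difference from growth was 2.39 ± 0.24 at day 4 (5.24-fold, adjusted p = 2.94e-06) and 3.56 ± 0.27 at day 12 (11.8-fold, adjusted p = 1.35e-07).

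Col4a1 read 8.42, 8.96 and 9.12 in growth, 10.29, 10.50 and 11.09 at day 4, and 9.93 and 10.16 at day 6. It read 9.49, 11.04 and 11.10 at day 8, 10.94, 11.11 and 11.30 at day 10, and 11.15 and 12.38 at day 12. Its DMSO arrays too all lay above the growth arrays. It was 3.48-fold above growth at day 4 (difference 1.80 ± 0.41, adjusted p = 0.00236) and 7.65-fold at day 12 (2.94 ± 0.45, adjusted p = 8.27e-05). The day 6 call (1.21, adjusted p = 0.0447) was lost when any 1 of 9 arrays was left out, with the value between 1.01 and 1.36.

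Col4a5 and Col4a6, the chains of a type IV network found in smooth muscle and some epithelial basement membranes, were not called at day 4 and rose later. Col4a5 read 4.57, 5.72 and 5.87 in growth, 6.00, 4.22 and 5.01 at day 4, and 8.03 and 7.75 at day 6. It read 8.44, 9.01 and 9.44 at day 8, 9.94, 10.06 and 9.60 at day 10, and 10.20 and 11.06 at day 12. Growth and day 4 overlapped, and all later arrays lay above both. The difference was -0.31 ± 0.44 at day 4 (adjusted p = 0.604), 2.50 ± 0.49 at day 6 (5.65-fold, adjusted p = 0.00101) and 5.24 ± 0.49 at day 12 (37.9-fold, adjusted p = 9.79e-07).

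Col4a6 read 4.21, 4.52 and 4.03 in growth, 4.17, 4.07 and 4.45 at day 4, and 4.67 and 5.85 at day 6. It read 5.37, 5.64 and 5.82 at day 8, 6.85, 6.93 and 7.09 at day 10, and 6.64 and 7.65 at day 12. All arrays from day 6 on lay above the growth and day 4 arrays, as for its neighbour. Col4a6 had a day 12 difference of 2.89 ± 0.33 (7.40-fold, adjusted p = 5.76e-06). The day 6 call (1.01, adjusted p = 0.0242) was lost without day 6 replicate C (0.42, adjusted p = 0.395), growth replicate A (0.99) or growth replicate C (0.89). The other type IV pair, Col4a3 and Col4a4, known from kidney and lung, was dim on all 16 arrays.

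Col18a1, a proteoglycan-type chain of vessel and epithelial basement membranes whose end fragment is endostatin, was low on 1 array of day 4 and rose from day 6. It read 7.71, 7.66 and 8.23 in growth, 8.14, 5.13 and 7.28 at day 4, and 9.23 and 9.91 at day 6. It read 9.24, 10.80 and 10.70 at day 8, 11.53, 11.69 and 11.58 at day 10, and 11.44 and 11.55 at day 12. Day 4 overlapped growth (-1.01 ± 0.59, adjusted p = 0.175), and all arrays from day 6 on lay above both. It was 13.3-fold above growth at day 10 (difference 3.73 ± 0.59, adjusted p = 9.41e-05). The day 4 difference was called lower without day 4 replicate A (-1.66, adjusted p = 0.026), and the day 6 call (1.71, adjusted p = 0.0498) was lost when any 1 of 13 of the 16 arrays was left out. Its other probe set differed by -0.05 at day 4 and 2.27 at day 6. Col7a1, the chain of the anchoring fibrils beneath skin epithelium, was called on no day, with values of 3.07 to 4.69, and Col15a1 was dim on all arrays.

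Markers of parietal endoderm, an early yolk sac tissue that secretes much basement membrane, moved in the same period. Of 9, Lama1, Lamb1 and Gata6 were called higher from day 4 and Dab2 from day 6, while Sox7, Sox17 and Krt19 were dim on every array. Stra6 was below its growth level but not called (-0.76 at day 4 and -0.89 at day 12), and Thbd was above the cutoff on 1 day 12 array alone. Their log2 summed signal was 7.97 to 8.53 in growth, 10.30 to 10.80 at day 4, 10.87 to 11.00 at day 6, 10.98 to 11.95 at day 8, 11.77 to 11.84 at day 10 and 11.86 to 12.32 at day 12. Their part in the type IV result was not tested.

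**Figure D2:**
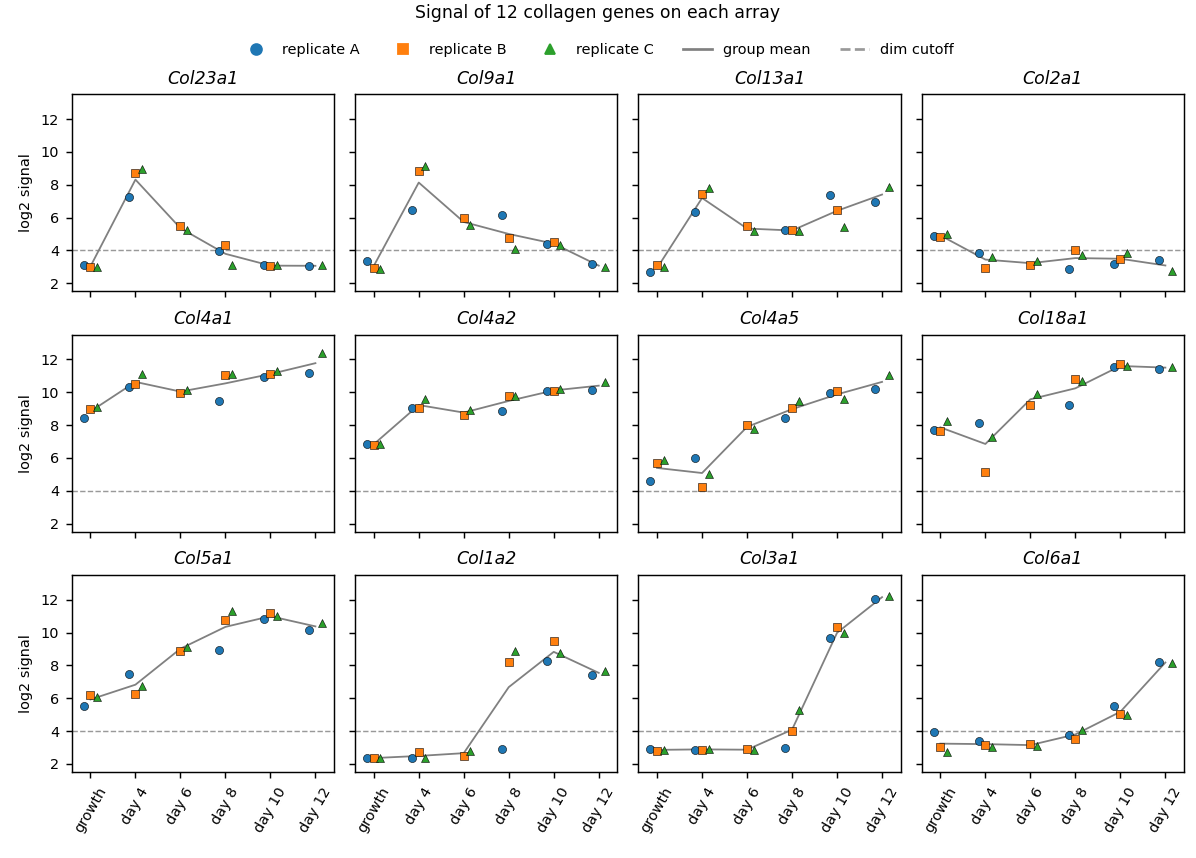
Log2 signal (y axis) of 12 collagen genes in growth and at days 4 to 12 in DMSO (x axis); points are arrays by replicate letter, grey lines join group means and the dashed line is the dim cutoff of 4. Col23a1 and Col9a1 peak at day 4 with means of 8.31 and 8.13, Col4a2 is up from day 4, Col4a5 and Col5a1 from day 6, and Col3a1 reaches 12.16 at day 12.

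Beaded filament chains were called at days 10 and 12. Type VI collagen forms a mesh close to the cell surface, known from muscle and its connective tissue, and 3 of its 5 chains measured here were tested. None was called at days 4 to 8, 2 were at day 10 and all 3 at day 12. Of all genes, 18.5% and 22.5% were called higher at days 10 and 12. Col6a1 read 3.93, 3.05 and 2.75 in growth, 3.43, 3.13 and 3.06 at day 4, and 3.20 and 3.09 at day 6. It read 3.77, 3.53 and 4.10 at day 8, 5.54, 5.04 and 4.96 at day 10, and 8.22 and 8.14 at day 12. The groups of day 10 and day 12 did not overlap each other or any earlier one. Its step from day 10 to day 12 was 3.00 ± 0.30 (8.01-fold, adjusted p = 2.75e-05), and day 12 was at least 18.1-fold above growth (adjusted p = 1.77e-08).

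Col6a2 and Col6a3, which join Col6a1 in the type VI molecule, were dim until day 12. Col6a2 ranged from 2.80 to 3.33 on the 14 earlier arrays and read 6.40 and 5.99 at day 12. Col6a3 read 1.90, 1.91 and 1.90 in growth, 1.90, 1.90 and 1.89 at day 4, 1.91 and 1.89 at day 6, 1.92, 2.06 and 3.20 at day 8, 3.02, 3.50 and 2.73 at day 10, and 5.92 and 5.93 at day 12. Day 12 stood alone above the cutoff in both. Both genes were thus tested only because of their day 12 arrays, and a difference at day 12 was built into that choice. The step from day 10 was 3.08 ± 0.17 for Col6a2 (at least 4.57-fold, adjusted p = 1.35e-07) and 2.84 ± 0.31 for Col6a3 (at least 3.80-fold, adjusted p = 6.55e-05). The Col6a3 call at day 10 (1.18, adjusted p = 0.00209) compares values that are all dim and gives no fold, and it was lost without day 10 replicate B (0.97). Col6a4 and Col6a5 were dim on all arrays.

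Short chain collagens, which build hexagonal lattices in vessel walls and under the corneal endothelium, were mixed. Col8a2 read 3.37, 2.61 and 2.87 in growth, 2.88, 2.93 and 2.64 at day 4, and 4.47 and 3.73 at day 6. It read 4.34, 5.74 and 5.33 at day 8, 3.97, 3.90 and 4.21 at day 10, and 5.73 and 6.19 at day 12. Its course went up, down and up again, and day 10 lay below all arrays of days 8 and 12. It was at least 3.90-fold above growth at day 12 (difference 3.01 ± 0.35, adjusted p = 7.5e-06). The fall from day 8 to day 10 was 1.11 log2 (adjusted p = 0.0306) and was lost when any 1 of 4 arrays of those days was left out. Its day 6 call (1.15, adjusted p = 0.0179) was lost without growth replicate B (0.98) or day 6 replicate B (0.78), and its day 10 call (1.07, adjusted p = 0.00957) without growth replicate B (0.90) or day 10 replicate C (0.98).

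Col8a1, the partner chain of type VIII, lay between 2.89 and 3.19 on the arrays of growth to day 8. It read 4.13, 3.17 and 2.95 at day 10 and 4.33 and 3.83 at day 12. It was called at day 12 alone (1.16 ± 0.27, adjusted p = 0.00202), and the call was lost without day 12 replicate A (0.91) and with values under 4 set to 4 (0.16). Col10a1, the short chain of hypertrophic cartilage, stayed between 2.19 and 2.23.

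Of 9 FACIT chains 7 were tested, and they shared no course. Col9a1, a type IX chain that coats type II fibrils, peaked at day 4. It read 3.34, 2.92 and 2.89 in growth, 6.44, 8.84 and 9.12 at day 4, and 5.95 and 5.52 at day 6. It read 6.14, 4.74 and 4.11 at day 8, 4.38, 4.52 and 4.32 at day 10, and 3.15 and 2.98 at day 12. All day 4 arrays lay above all others, and day 12 overlapped growth. The day 4 difference was 5.08 ± 0.59 (at least 17.5-fold, adjusted p = 1.1e-05), day 12 differed from growth by 0.02 ± 0.66, and day 12 lay 5.07 ± 0.66 log2 below day 4 (adjusted p = 3.43e-05). Without day 8 replicate A the day 8 call (1.95, adjusted p = 0.0127) was lost (1.38, adjusted p = 0.0604). The other Col9a1 probe set showed the day 4 rise at 2.05 (adjusted p = 6.39e-05 over all probe sets).

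Its partner chains did not share that peak. Col9a2 read 3.89, 3.85 and 4.58 in growth, 3.70, 3.51 and 3.32 at day 4, and 2.98 and 3.64 at day 6. It read 3.70, 3.93 and 3.52 at day 8, 3.89, 3.83 and 4.28 at day 10, and 5.65 and 5.60 at day 12. Only the day 12 arrays lay above all growth arrays. Col9a2 was 2.87-fold above growth at day 12 (difference 1.52 ± 0.26, adjusted p = 0.000169). Col9a3 was called on no day (differences 0.03 to 0.28), and its other probe set went from -0.14 to -0.85.

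Col19a1, a FACIT chain of basement membrane zones in muscle and the lower oesophagus, was above the cutoff at day 4 alone. It read 2.48, 4.76 and 5.0 there, and between 2.39 and 2.47 on all 13 other arrays. Replicates B and C were up, and replicate A was not. The gene was tested only because of replicates B and C, so a difference at day 4 was built into that choice. The difference was 1.66 ± 0.45 (adjusted p = 0.0075), which against the dim growth group amounts to at least 1.06-fold, and the call was lost with values under 4 set to 4 (0.59) or with only growth and day 4 in the fit (adjusted p = 0.0833). Col12a1, Col16a1 and Col22a1 were called on no day, with differences from growth between -0.32 and 0.00. Col14a1 and Col20a1 did not pass the cutoff.

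Of 4 transmembrane chains 3 were tested, and 2, 2, 1, 1 and 2 of them were called higher at days 4 to 12. Col23a1, a surface collagen that can be shed, read 3.09, 2.97 and 3.00 in growth, 7.27, 8.72 and 8.94 at day 4, and 5.47 and 5.23 at day 6. It read 3.97, 4.32 and 3.09 at day 8, 3.08, 3.03 and 3.09 at day 10, and 3.04 and 3.08 at day 12. The day 4, day 6 and growth groups did not overlap, and days 10 and 12 were back among the growth values. The day 4 mean of 8.31 ± 0.91 (SD, n = 3) was at least 19.8-fold above growth (difference 5.29 ± 0.37, adjusted p = 9.3e-08). Day 6 lay 2.96 ± 0.41 log2 below day 4 (7.77-fold, adjusted p = 0.000473), and days 10 and 12 differed from growth by 0.05 and 0.04, with 95% intervals of -0.74 to 0.84 and -0.84 to 0.92. Both other probe sets of the gene rose at day 4, by 2.95 and 3.22. With the mean of the gene's probe sets the day 6 call was lost (1.18, adjusted p = 0.0563).

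Col13a1, a surface collagen known from the neuromuscular junction, rose at day 4 and stayed up. It read 2.67, 3.09 and 3.01 in growth, 6.35, 7.46 and 7.77 at day 4, and 5.46 and 5.20 at day 6. It read 5.26, 5.22 and 5.16 at day 8, 7.38, 6.46 and 5.40 at day 10, and 6.95 and 7.85 at day 12. All DMSO arrays lay above all growth arrays, and all arrays of days 6 and 8 lay below those of days 4 and 12. It was at least 9.13-fold above growth at day 4 (difference 4.27 ± 0.43, adjusted p = 3.64e-06) and at least 10.5-fold at day 12 (adjusted p = 3.78e-06). The fall from day 4 to day 6 was 1.86 log2 (adjusted p = 0.0307) and was lost when any 1 of 4 arrays of those days was left out.

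Col25a1, a transmembrane collagen known from neurons and motor innervation, was above the cutoff on both day 12 arrays and on 1 of day 4. It read 2.97, 2.84 and 2.83 in growth, 3.01, 3.13 and 4.31 at day 4, and 4.92 and 5.33 at day 12, and between 2.91 and 3.50 on the other arrays. Its day 12 mean was at least 2.18-fold above growth (difference 2.24 ± 0.32, adjusted p = 3.73e-05). Col17a1, the transmembrane chain of skin hemidesmosomes, stayed between 2.25 and 2.32. Of 5 neural markers, Sox1, Pax6 and Neurog2 were dim in every group, and the log2 summed signal was 8.37 to 8.85 in growth and 7.02 to 7.18 at day 12. Tubb3 was lower on every day (-2.35 at day 12). Map2 was dim through day 8 and called higher at day 10 (1.45, adjusted p = 0.000351) and day 12 (2.97, adjusted p = 1.96e-06), and its part in the Col25a1 result was not tested.

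The 13 collagen genes that did not pass were Col4a3, Col4a4, Col5a3, Col6a4, Col6a5, Col10a1, Col11a2, Col14a1, Col15a1, Col17a1, Col20a1, Col24a1 and Col26a1. Their values ran from 2.06 to 4.48, and 10 of them were dim on all 16 arrays. Col20a1 (4.36 on growth replicate A), Col24a1 (4.08 on day 4 replicate C) and Col26a1 (4.48 on day 4 replicate C) each exceeded the cutoff on 1 array.

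**Figure D3:**
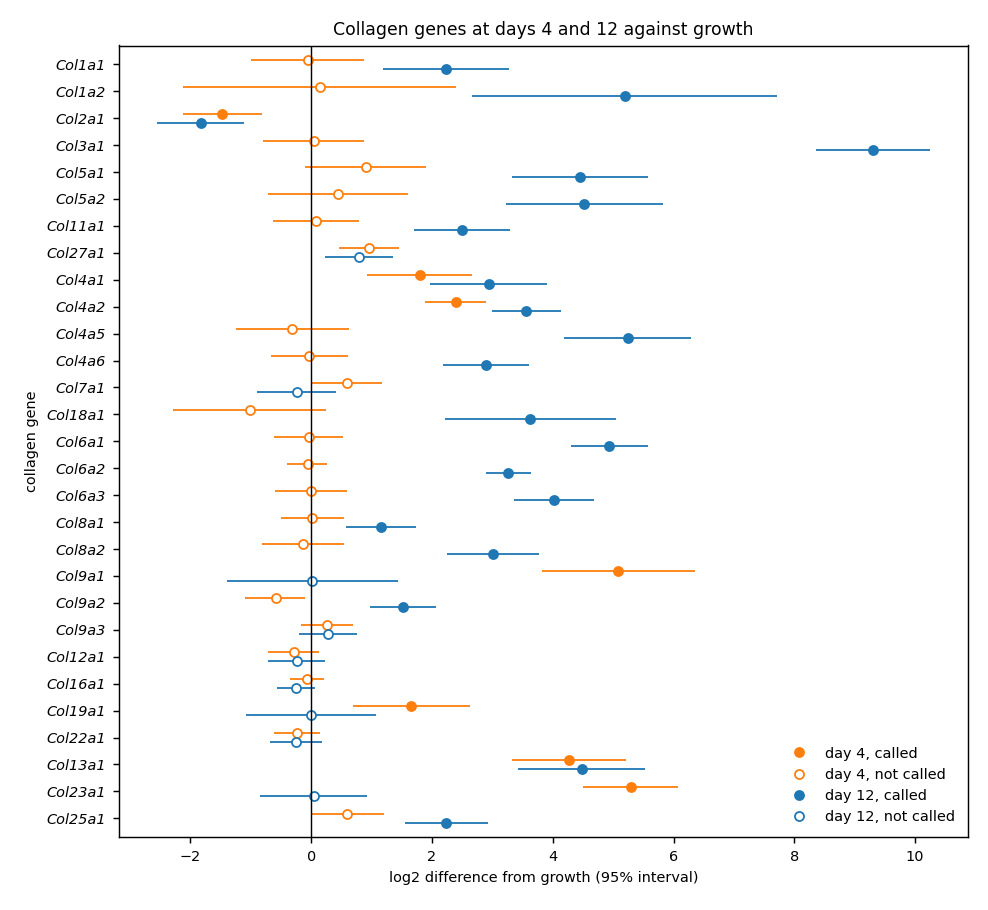
Log2 difference from growth (x axis, with 95% intervals) of the 29 collagen genes (y axis) at day 4 (orange) and day 12 (blue); filled points are called. Col23a1 and Col9a1 stand at 5.29 and 5.08 at day 4 and near 0 at day 12, while Col3a1 goes from 0.04 to 9.30 and Col6a1 from -0.04 to 4.93.

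Between neighbouring days, 7, 0, 4 and 7 collagen genes were called. From day 4 to day 6, Col4a5, Col5a1, Col8a2 and Col18a1 were called higher and Col9a1, Col13a1 and Col23a1 lower, 7 of 29 beside 6.13% of all genes (3.52% higher and 2.61% lower). Each of these 7 lost its call under at least 1 of the alternatives, and Col5a1 alone of the 7 kept it when only the arrays of those days were fitted, where Col1a1 gained a call (1.63, adjusted p = 0.0368). With no dim cutoff 1 collagen gene was called in each direction (1.56% of all genes higher and 1.11% lower). From day 8 to day 10, Col3a1, Col4a6 and Col6a1 were higher and Col8a2 lower (4 of 29, beside 7.81% of all genes, 4.62% higher and 3.19% lower). From day 10 to day 12, Col3a1, Col6a1, Col6a2, Col6a3, Col8a2, Col9a2 and Col25a1 were higher and 0 lower (7 of 29, beside 3.06% of all genes, 2.88% higher and 0.185% lower; 1.45% were higher with no dim cutoff). Of these, Col6a1, Col6a2, Col6a3 and Col9a2 kept the call whichever array was left out. Col3a1 lost it without either day 12 array, and Col8a2 and Col25a1 lost it without day 12 replicate C. Directly between day 4 and day 12, 18 were higher and 3 lower (beside 32.2% of all genes, 19% higher and 13.2% lower), the 3 being Col9a1, Col19a1 and Col23a1.

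From day 6 to day 8, limma called 0 collagen genes higher and 0 lower, beside 0.0185% of all genes. Without day 8 replicate A, 6 were higher and 1 lower, and 5.67% of all genes were called. That array was left out because it resembled day 6, so the p-values of this fit favour a difference and are descriptive. The 6 were Col1a2, Col3a1 (1.77 ± 0.32, adjusted p = 0.0044), Col4a2 (1.02), Col5a1 (2.02), Col5a2 (2.98 ± 0.33, adjusted p = 0.000121) and Col8a2 (1.43), and Col23a1 was lower (-1.64, adjusted p = 0.044). Against growth, the day 8 counts were 12 and 1 with and without this array: Col9a1 lost its call and Col11a1 gained it (1.09, adjusted p = 0.0131).

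Markers of mesenchyme and of other cell types were read beside the fibrillar and type VI chains. Of 7 mesenchyme and fibroblast markers, Thy1 and Prrx1 were dim in every group, and the other 5 were above the cutoff on both day 12 arrays. Their log2 summed signal was 5.81 to 6.57 in growth, 8.33 to 10.19 at day 4, 9.37 to 9.50 at day 6, 9.48 to 10.18 at day 8, 10.35 to 10.69 at day 10 and 9.71 to 10.27 at day 12. This sum was already up at day 4 and was not higher at day 12 than at day 10. At day 4 it rested mainly on Pdgfra (7.7, 10.12 and 9.44), with Thy1, Postn, Twist1, Prrx1 and Tcf21 dim. The members differed in time. Twist1 read 6.49 and 5.97 at day 6. Postn read 4.22 and 4.88 at day 6, and 5.32 in replicate A and 8.89 in replicate B of day 8. It then read 9.84, 10.13 and 10.2 at day 10, and 8.26 and 8.62 at day 12. Tcf21, an epicardial and fibroblast factor, was dim through day 10 and read 6.28 and 6.42 at day 12. The 5 smooth muscle markers summed to 6.35 to 6.95 in growth and 14.48 to 14.49 at day 12, with Myh11 dim in every group. At day 8 they ran from 8.06 to 12.57 and the cardiomyocyte markers from 9.61 to 13.39, with replicate A lowest in both. The 5 endothelial markers summed to 4.82 to 5.06 in growth, 8.21 to 9.38 at day 4 and 8.39 to 9.18 at day 12. At day 4 Kdr alone was above the cutoff (8.09, 9.22 and 9.33), with Pecam1, Cdh5, Tek and Tie1 dim. At day 12 Kdr and Tek were above it on both arrays, Pecam1 and Cdh5 on 1 each, and Tie1 was dim. The 6 visceral endoderm markers summed to 5.26 to 5.34 in growth and 10.51 to 10.92 at day 12, with Amn, Cubn and Hnf4a dim in every group. The part of these cell types in the collagen results was not tested.

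Genes that make, move, bind and break down collagen were counted in 6 lists with 59 tested genes, chosen by function. Over all lists 10, 18, 30, 37 and 40 of 59 were called higher at days 4, 6, 8, 10 and 12, and 4, 4, 2, 2 and 2 lower, beside the shares of all genes given above. The median difference from growth was 0.02 at day 4 and 1.63 at day 12, beside 0.00 for all genes on both days.

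Of 20 tested genes that modify and fold the chains, 2, 6, 11, 13 and 12 were higher on those days and 0 lower. P4ha2, a prolyl hydroxylase subunit, had the largest rise of the list, from 1.52 at day 4 (adjusted p = 0.00218) to 4.82 at day 12 (adjusted p = 2.19e-07). Its paralog P4ha1 rose by 3.52 at day 12 (adjusted p = 2.39e-07), Fkbp14, a proline isomerase, by 3.72 (adjusted p = 4.16e-05), and P3h4, a partner of lysyl hydroxylation, by 3.46 (adjusted p = 0.0014). Plod3 and Colgalt1, which modify lysines, were called on no day.

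Of 8 export genes, 0, 0, 3, 2 and 3 were higher and 2, 1, 0, 1 and 1 lower. Sec24d, a vesicle coat subunit needed for large cargo, was lower than growth at day 4 (-3.00, adjusted p = 0.00291) and higher at day 12 (2.69, adjusted p = 0.00858). Its day 4 call was lost with values under 4 set to 4 (-1.18, adjusted p = 0.193). Sec13, another coat subunit, was 1.52 log2 lower at day 4 (-1.52, adjusted p = 2.2e-05). Trappc2 (1.55) and Sec23a (1.24) were higher at day 12, and Klhl12 was lower (-1.06). At day 12, Sec24d (2.32, adjusted p = 0.077) and Sec23a (0.88) lost the call without day 12 replicate C, and Klhl12 (-0.99) without growth replicate C.

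Of 9 processing and cross-linking genes, 2, 4, 4, 6 and 5 were higher and 0, 1, 1, 1 and 1 lower. Adamts3, a protease that trims fibrillar chains, was up from day 4 (3.59, adjusted p = 4.72e-06). The lysyl oxidases, which cross-link fibrils, differed in time: Loxl1 was called from day 6 (2.82, adjusted p = 0.000253), and Lox was dim through day 8 and called at day 10 (2.59) and day 12 (3.42, adjusted p = 2.87e-09). Tgm2, a transglutaminase, was 4.61 higher at day 12 (adjusted p = 2.34e-08). The enhancer of chain trimming Pcolce2 was lower from day 6 on, at -3.53 on day 12 (adjusted p = 0.00525). Its day 6 call was lost without day 6 replicate C (adjusted p = 0.0531).

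Of 10 fibril and network partners, 2, 2, 3, 6 and 9 were higher and 1, 1, 0, 0 and 0 lower. Fn1, fibronectin, on which cells assemble fibrils, rose by 5.82 at day 4 (adjusted p = 6.15e-09). Nid1, which ties type IV collagen to laminin, rose by 2.13 at day 4 (adjusted p = 0.000264) and 5.12 at day 12 (adjusted p = 2.09e-07), and Nid2 was lower at day 4 (-1.03, adjusted p = 0.0206). By day 12 Nid2 read 10.92 and 11.02, above its growth values of 9.04, 9.93 and 9.81. The small proteoglycans that bind fibrils came late: Dcn (4.44), Lum (4.29) and Fmod (4.05) were all called at day 12, and Lum was not called before it. The Nid2 call at day 4 was lost without growth replicate B (-0.87), growth replicate C (-0.92) or day 4 replicate B (-0.89).

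Of 5 collagen receptors, 3, 3, 5, 4 and 5 were higher and 0 lower on any day. Ddr1, a receptor kinase, was 3.35 above growth at day 12 (adjusted p = 0.000184), and Ddr2, which prefers fibrillar collagen, was dim in growth and 3.22 higher (adjusted p = 0.0103). Itgb1, the shared integrin subunit, rose by 1.06 at day 4 (adjusted p = 0.00101), and Itga1, its partner for type IV collagen, by 1.46 (adjusted p = 0.042). The day 4 call of Itgb1 was lost without growth replicate A (0.96) or day 4 replicate A (0.97). That of Itga1 was lost with no dim cutoff (adjusted p = 0.104) and when any 1 of the growth or day 4 arrays was left out, and the Ddr2 call at day 12 without day 12 replicate C (2.39, adjusted p = 0.123).

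Of 7 breakdown genes, 1, 3, 4, 6 and 6 were higher and 1, 1, 1, 0 and 0 lower. The protease Adamts1 was dim in growth and at least 45.0-fold higher at day 12 (difference 6.16, adjusted p = 0.00016). The gelatinase Mmp2 rose by 1.76 at day 4 (adjusted p = 1.32e-05), and Mmp14, its activator at the cell surface, was called from day 6 (1.47, adjusted p = 0.000112). Timp1, an inhibitor of these proteases, was lower at days 4, 6 and 8, at -2.86, -3.21 and -2.22.

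**Figure D4:**
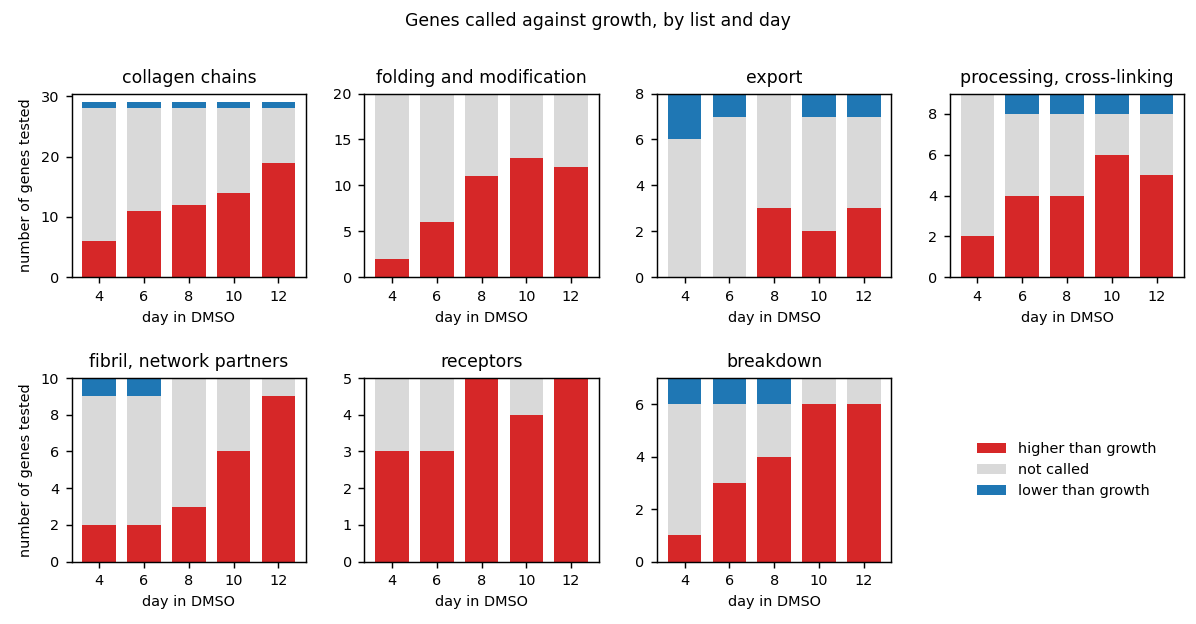
Number of tested genes (y axis) called higher (red), lower (blue) or not called (grey) against growth at each day in DMSO (x axis), for the 29 collagen genes and the 6 lists around them. The red part grows from 6 to 19 of 29 for collagen genes and from 2 to 9 of 10 for fibril and network partners.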

How the data were processed

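Whole-culture RNA from 16 P19CL6 samples was hybridized to Affymetrix mouse arrays, 1 array per sample. The deposited log2 values were made by the authors with GCRMA, per the submitters' processing notes. GCRMA is a method that corrects background by probe sequence and summarizes the probes of a set, and its version and settings are not given in the sources used here. The base of the logarithm was read from the range of the values, 0.86 to 15.86. Of 45101 probe sets, 34945 named 1 gene, 932 several and 9160 none, and 64 were controls.

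Group means of the 16 arrays were estimated in 1 linear model (limma 3.58.1, R 4.3.3, 10 residual and 3.53 prior degrees of freedom), and every gene was adjusted with all others of its contrast. A group whose arrays all lay at or below 4 is dim, and a fold against it is the brighter mean over 4, given as at least that. No detection calls were used, and the number of arrays limits the precision. Values on all arrays are given for each collagen gene called on any day, as a range where the arrays of several days lay close together, and up to 4 called genes of a list are named at a day. The members and lists were chosen with earlier results of these data known. The replicate letters recur across groups, but the labels do not say what they share, and since not every same-letter correlation of deviations was over 0.1 they were not treated as pairs. This rule cannot exclude pairing, because deviations from the mean of a small group are tied to each other. The scripts were tested on simulated data. Figures used Python 3.11.15 and matplotlib 3.10.9.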

Additional observations from a re-analysis of the deposited data

Results flagged for a closer look

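The difference from growth was compared between day 4 and day 12 (day 12 minus day 4, limma, adjusted over all genes). The growth level cancels, so this is the same contrast of day 12 with day 4 as given above. It was called for 21 of 29 collagen genes, beside 32.2% of all genes (19% higher and 13.2% lower). The difference from growth was larger at day 12 for Col3a1 by 9.26 log2, Col4a5 by 5.55, Col1a2 by 5.05, Col6a1 by 4.97, Col18a1 by 4.65, Col5a2 by 4.07, Col6a3 by 4.03, Col5a1 by 3.55, Col6a2 by 3.33 and Col8a2 by 3.15. It was also larger for Col4a6 by 2.91, Col11a1 by 2.42, Col1a1 by 2.29, Col9a2 by 2.11, Col25a1 by 1.64, Col4a2 by 1.17, Col8a1 by 1.14 and Col4a1 by 1.14. It was smaller at day 12 for Col19a1 (-1.66), Col9a1 (-5.07) and Col23a1 (-5.25). The Col4a1 call (adjusted p = 0.0498) was lost when any growth or day 10 array was left out, and without day 4 replicate A or B. It was also lost with no dim cutoff (adjusted p = 0.109) and with only days 4 and 12 in the fit (0.077). Without day 12 replicate C the Col4a1 value was 0.52 log2. The Col4a2 value was 0.93 log2 without that array. The Col8a1 call was lost without day 12 replicate A (0.89, adjusted p = 0.0505). The Col19a1 call was lost without day 4 replicate B, day 4 replicate C, day 12 replicate A or day 12 replicate C (adjusted p = 0.0539, 0.0543, 0.0681 and 0.061), and with only those days in the fit (0.131).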

How the results depend on the processing

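Leaving out each array in turn gave 22 to 24 collagen genes by the F test (23 with all arrays). Against growth the counts higher ran from 6 to 7 at day 4, 7 to 11 at day 6, 12 to 13 at day 8, 13 to 15 at day 10 and 18 to 19 at day 12, and those lower from 1 to 2 at days 4 and 6 and stayed at 1 later. From day 4 to day 6 they ran from 1 to 6 higher and 1 to 4 lower, from day 6 to day 8 from 0 to 6 and 0 to 1, from day 8 to day 10 from 3 to 7 and 0 to 1, from day 10 to day 12 from 4 to 8 and 0 to 1, and between days 4 and 12 from 16 to 18 and 2 to 3. For the 59 list genes the ranges were 6 to 11 higher and 3 to 6 lower at day 4, 14 to 20 and 3 to 5 at day 6, 21 to 34 and 2 to 4 at day 8, 34 to 39 and 1 to 3 at day 10, and 32 to 41 and 1 to 4 at day 12. Without the dim cutoff, 7 were higher at day 6, 1 higher and 1 lower from day 4 to day 6, and 0 lower from day 8 to day 10. With a cutoff of 6, 13 collagen genes were left: 0 were lower on any of the 5 days or from day 8 to day 10, 11 were higher at day 12, 2 from day 10 to day 12 and 10 between days 4 and 12, and the F test called 13. With values under 4 set to 4, 0 were lower on any day against growth. With array weights, 6 were higher and 2 lower from day 6 to day 8. With only the groups compared in the fit, 2 were higher and 0 lower from day 4 to day 6, 0 lower from day 8 to day 10 and 1 lower from day 10 to day 12. Of 2720 alternative values for 106 called collagen results, 2573 stayed called, 147 did not and 0 reversed. By result, 34 of the 106 lost the call under at least 1 alternative. For 149 list results, 3728 of 3869 values stayed called, 141 did not and 0 reversed, and 49 of the 149 results lost the call at least once. The values include fits that left out an array of neither group compared, so the share of values kept is not the share of results kept.

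What arrays with the same replicate letter have in common is not stated in the labels. Deviations from the group means correlated between same-letter arrays at -0.207 to 0.324 (35 pairs, median 0.063, 13 over 0.1). Between arrays of different letters they ran from -0.343 to 0.344 (71 pairs, median -0.033, 7 over 0.1). Of 16 arrays, 12 correlated best with an array of their own letter, a hint from the data and not the design. With the letter as a replicate block, 6, 8, 12, 14 and 19 collagen genes were higher at days 4, 6, 8, 10 and 12 and 1 lower on each. Groups of 2 or 3 arrays limit what could be called, and below the cutoff a level is only a bound.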
